A study of Solanum lycopersicum with 24 samples.

Results

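Green fruit of the tomato mutant Never-ripe was compared with green fruit of its wild type for peaks of N1-methyladenosine (m1A) in 3 classes of RNA: mRNA, long non-coding RNA (lncRNA) and circular RNA (circRNA). The comparison takes the peak lists of 6 of the 24 samples, and these hold 2428 of the 4332 m1A peaks listed in the series when each peak is counted once per library and RNA class. The members were chosen by genotype and stage alone. The mutant group, called Nr G here, is fruit of the homozygous ethylene receptor mutant Never-ripe, which is in the Ailsa Craig background and is titled G. It was taken as the green stage because the design text calls late Never-ripe fruit orange. The wild-type group, called AC MG, is mature green Ailsa Craig fruit. The design text puts the mature green stage, which it gives for both genotypes, at about 39 days post-anthesis. The labels name no treatment, each group has 3 biological replicates, and the labels give the source only as tomato. RNA was fragmented, m1A-bearing fragments were immunoprecipitated (IP) with an antibody, and peaks were called for each IP library. Lists exist here for IP libraries, and input libraries were not used here.

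N1-methyladenosine is an adenosine with a methyl group on the ring nitrogen that normally pairs with uridine, so the mark blocks base pairing where it stands. It is best known from tRNA and rRNA and is also found in mRNA. Tomato fruit ripen under control of the gas ethylene, which is bound by receptors of the ETR family. These receptors repress the response until ethylene binds them. The Never-ripe allele gives a receptor that no longer binds ethylene, so the response stays repressed and fruit ripen slowly and in part. Mature green fruit are full grown, and in the wild type they have not yet begun the burst of ethylene that goes with ripening.

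The number of listed peaks did not separate the genotypes in green fruit. The mRNA lists held 377, 233 and 360 peaks in Nr G replicates 1 to 3, against 688, 220 and 308 peaks in AC MG replicates 1 to 3. The highest and the lowest of the 6 numbers both belonged to wild-type libraries, and the mutant libraries lay between them. On the log2 scale the Nr G mean lay 0.19 ± 0.54 (SE) below the AC MG mean, and the two-sided exact permutation test gave p = 0.9 (n = 3 each). Without AC MG replicate 1 the difference turned to 0.28 with Nr G higher, and without Nr G replicate 2 it turned to 0.03. A test of 3 against 3 libraries cannot give a p below 0.1, and here p measures only the spread between these libraries.

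The non-coding classes were small in both genotypes. The lncRNA lists held 4, 4 and 5 peaks in Nr G, against 6, 2 and 3 in AC MG, and the circRNA lists held 40, 32 and 34 peaks in Nr G, against 42, 33 and 37 in AC MG. The groups overlapped in each of these classes. The log2 differences, Nr G minus AC MG, were 0.28 ± 0.37 for lncRNA (exact permutation p = 0.5) and -0.08 ± 0.14 for circRNA (exact permutation p = 0.6), both SE with n = 3 each. Without AC MG replicate 1 the circRNA value was 0.01. For lncRNA, 1 was added to each number before taking the log, and counting every listed row instead of each peak once gave 0.66 (exact permutation p = 0.3). In every class AC MG replicate 1 had the most peaks when each peak was counted once. By listed rows, Nr G replicate 3 had the longest lncRNA list, with 10 rows against 6 in AC MG replicate 1.

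**Figure D1:**
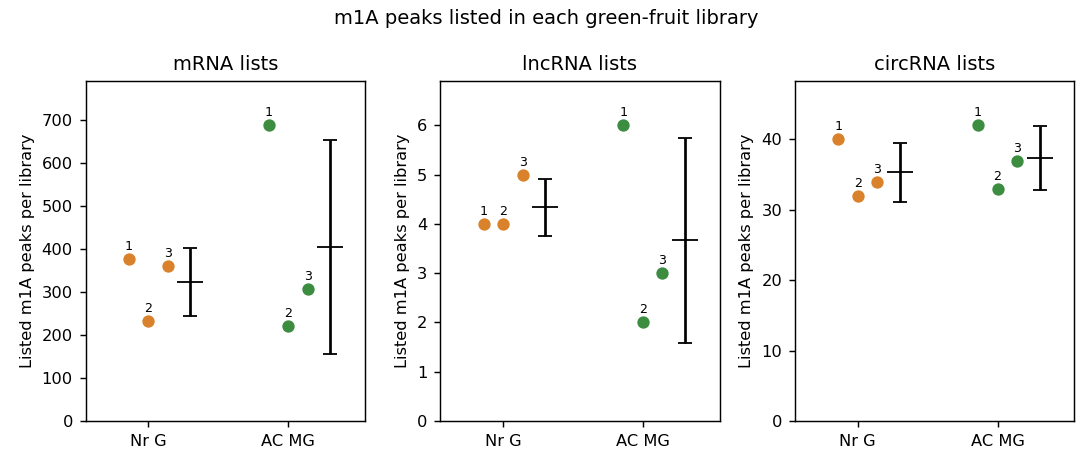
Number of m1A peaks listed in each green-fruit library (y axis, peaks, from 0), by RNA class and genotype. Each point is a library with its replicate number, and the bar beside the points is the mean ± SD of 3 libraries. The groups overlap in every class, and AC MG replicate 1 stands highest in each panel with 688, 6 and 42 peaks.

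Peak length and strength in mRNA overlapped between the genotypes. The median length of an mRNA peak was 197, 186 and 185 nt in the Nr G libraries, against 200, 194.5 and 216 nt in the AC MG libraries. The lowest AC MG value lay within the Nr G range, and the other two AC MG values lay above it. The mean of the medians differed by -14.2 ± 7.51 nt (SE), Nr G minus AC MG, with exact permutation p = 0.2 (n = 3 each). When peaks under the median fold enrichment of the green mRNA lists were dropped, the difference was -22 nt with exact permutation p = 0.1, the smallest possible here. In late fruit the same difference, late Never-ripe minus wild type 6 days after breaker, was -13 nt, and the permutation test of the difference between the stages gave p = 0.965. The authors' fold enrichment, a ratio made by their peak caller that never exceeds 50 in the lists, is described here and not tested. Its median over mRNA peaks was 14.2, 17.7 and 17.2 in the Nr G lists, against 12.8, 19.8 and 12.6 in the AC MG lists. Peaks at the value 50 made up 11.7%, 13.3% and 11.7% of the Nr G lists, against 9.01%, 16.8% and 3.25% of the AC MG lists. The mutant lists were thus close to each other in this share, and the wild-type lists spread below and above them.

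Few genes carried more than 1 peak. Peaks per called gene averaged 1.07 ± 0.019 in Nr G and 1.09 ± 0.0339 in AC MG (SD, n = 3 each), with exact permutation p = 0.5. Genes with at least 2 peaks made up 5.03%, 6.88% and 9.09% of called genes in the Nr G libraries, against 12.2%, 7.35% and 6.23% in the AC MG libraries. The ranges overlapped. The most peaks in a gene of an mRNA list were 4, in Solyc07g064190 of AC MG replicate 1. Over the 8 tests between the genotypes the lowest Benjamini-Hochberg adjusted p was 0.96 (exact permutation).

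A library was said to call an mRNA gene if its list places at least 1 peak there. The 6 lists named 1311 genes, of which 672 were called in at least 1 Nr G library and 863 in at least 1 AC MG library. Called genes numbered 358, 218 and 330 in the Nr G libraries, against 609, 204 and 289 in the AC MG libraries. Both genotypes shared 224 genes, Nr G alone had 448 and AC MG alone had 639. Most of these were seen once: 1021 genes (77.9%) were called in a single library, among them 424 of Nr G and 597 of AC MG. Another 71 genes (5.42%) were called in all 6.

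Whether libraries of a genotype shared more genes with each other than with the other genotype depended on the measure. The Jaccard index, the genes that 2 libraries share over the genes that either has, averaged 0.197 within genotypes and 0.196 between them. The one-sided exact permutation test over the 10 ways to split the libraries, for more sharing within genotypes, gave p = 0.4. Without Nr G replicates 1, 2 and 3 in turn the difference, within minus between, was below 0. With the overlap coefficient, the shared genes over the smaller list, the difference was 0.0294. In the Jaccard index without the genes called in all 6 libraries it was 0.00608. Both had one-sided exact permutation p = 0.1, the smallest that 10 splits allow. The difference in the Jaccard index was below 0 with lists cut to equal length (-0.00642). It was also below 0 without peaks under the median fold enrichment (-0.00177, one-sided exact permutation p = 0.6). The 3 Nr G pairs lay at 0.204 to 0.218, and the 3 AC MG pairs at 0.15 to 0.239. The 9 pairs of a mutant with a wild-type library spanned 0.147 to 0.249, wider than either. The share of a library's genes that both other libraries of its genotype also called averaged 29.2% ± 8.19 in Nr G and 28.3% ± 13.9 in AC MG (SD, n = 3 each, exact permutation p = 1). With lists cut to equal length the difference in that share, Nr G minus AC MG, was 4.11 percentage points (exact permutation p = 0.1, the smallest possible), and without peaks under the median fold enrichment it was 4.49 percentage points (exact permutation p = 0.8).

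**Figure D2:**
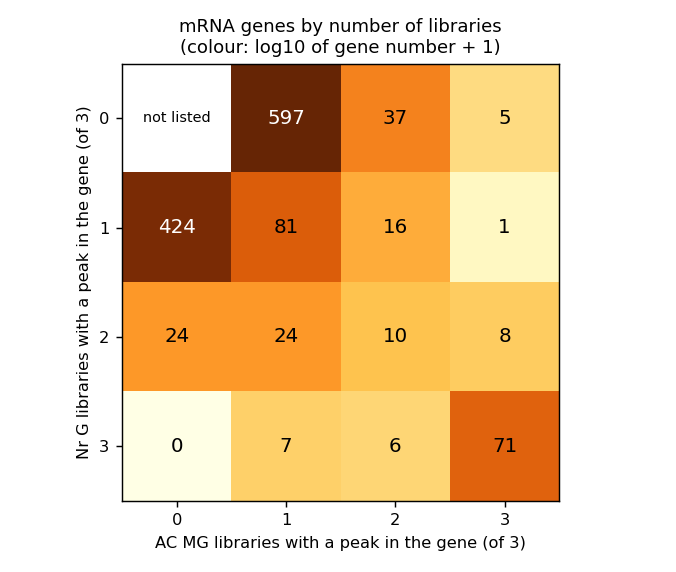
The 1311 mRNA genes by the number of Nr G libraries (rows, 0 to 3) and AC MG libraries (columns, 0 to 3) that list a peak in them; colour is the log10 of the gene number plus 1. Genes seen once (424 and 597) and genes seen in all 6 libraries (71) fill the table, with 24 genes in 2 Nr G libraries alone and 37 and 5 genes in 2 and 3 AC MG libraries alone.

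Genes that recur in 1 genotype were few. Of the 1311 genes, 24 (1.83%) were called in at least 2 Nr G libraries and no AC MG library, and 42 (3.2%) in at least 2 AC MG libraries and no Nr G library. Within those, 0 genes (0%) were called in all 3 Nr G libraries and 5 (0.381%) in all 3 AC MG libraries. No test is attached to a gene, as 3 calls against 0 is the most extreme outcome and its exact p is 0.1. The longest list supplied the most calls in each set: of the 24, Nr G replicates 1 to 3 listed 19, 13 and 16, and of the 42, AC MG replicates 1 to 3 listed 38, 21 and 30. Leaving out Nr G replicates 1, 2 and 3 in turn gave 5, 11 and 8 genes on the mutant side. Leaving out AC MG replicates 1, 2 and 3 in turn gave 9, 26 and 17 genes on the wild-type side, and leaving out AC MG replicate 1 raised the mutant side to 39. When all lists were cut to the length of the shortest, 220 peaks, the counts were 12 for Nr G and 18 for AC MG, of which 10 and 15 belong to the 24 and the 42. The lists give no RNA level, so a gene without the mark and a gene with too little RNA for a peak cannot be told apart.

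Counted by position, the pattern was like that by gene. Peaks of the 6 lists merged into 1546 regions on the assembly SL3.00. Of these, 17 (1.1%) were called in at least 2 Nr G and no AC MG library and 31 (2.01%) in at least 2 AC MG and no Nr G library, while 0 (0%) and 4 (0.259%) were called in all 3 libraries of Nr G alone and of AC MG alone and 68 in all 6. Leaving out Nr G replicates 1, 2 and 3 in turn gave 4, 8 and 5 regions of Nr G alone, leaving out those of AC MG gave 6, 20 and 13 of AC MG alone, and without AC MG replicate 1 those of Nr G alone numbered 30. Recurrence at the level of a gene often hid different positions. In 15 of the 24 mutant genes, and in 26 of the 42 wild-type genes, at least 1 peak overlapped between libraries of the genotype. The rest had their peaks at separate places in the gene. Among the 81 genes called in 1 Nr G and 1 AC MG library, 44 (54.3%) had overlapping peaks. All 71 genes called in 6 libraries had them. A gene was counted if any pair of its calling libraries overlapped. The 81 genes had 81 such pairs and the 71 genes 1065, so these shares do not compare like with like.

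Genes called in 2 mutant libraries included transcription factors, RNA-processing proteins and a chloroplast assembly factor. The NDR1/HIN1-like gene Solyc01g007220, of a family of membrane proteins linked to pathogen defence in Arabidopsis and tobacco, had a fold enrichment of 50 in Nr G replicate 2 and 34.2 in replicate 3, and no peak in the AC MG libraries or in any late library. Its peaks lay at chr1:1799709-1799832 and chr1:1799709-1799834, so they began at the same base. The gene Solyc02g090910 for heterogeneous nuclear ribonucleoprotein A0, an RNA-binding protein, had values of 19.9 and 18.2 in Nr G replicates 1 and 3 and none in AC MG, again from a shared start at chr2:53030803. A wild-type library 6 days after breaker, replicate 3, listed a peak from that same base with 5.37. The 40S ribosomal protein S24 gene Solyc09g065330 had the same interval, chr9:63629142-63629263, in Nr G replicates 2 and 3, with values of 5.1 and 21.1, and none in AC MG. Late wild-type replicate 1 listed another place in that gene, chr9:63631321-63631407, with 8.02. These 3 genes thus had recurrent peaks at 1 place in green mutant fruit.

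Other mutant genes recurred with unequal strength or at different places. The bZIP transcription factor 60 gene Solyc04g082890, whose Arabidopsis relative acts in the stress response of the endoplasmic reticulum, had 2.13 in Nr G replicate 1 and 48.3 in replicate 3, with 213 shared bases. Rubisco accumulation factor 1.1 (Solyc11g006060), which helps to assemble the carbon-fixing enzyme of the chloroplast, had 4.8 in replicate 1 and 43.4 in replicate 2, from the same start at chr11:860930. RABA2a (Solyc01g103380), a small GTPase of vesicle traffic, had the interval chr1:91876878-91877192 in both lists, with 6.76 in replicate 1 and 23.3 in replicate 2, and replicate 2 also listed chr1:91874891-91874913 with 26.7. None of these 3 had a peak in AC MG. In late fruit, bZIP 60 was listed over the same bases in wild-type replicates 2 and 3 with 2.38 and 2.4, and rubisco accumulation factor 1.1 in Never-ripe replicate 2 with 49.97, at another place in the gene.

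TAGL1 (Solyc07g055920), a MADS-box regulator of fruit ripening, showed how far apart the positions could lie. Nr G replicate 1 listed a peak at chr7:63972245-63972442 with a fold enrichment of 5.33. Nr G replicate 3 listed peaks at chr7:63978769-63978859 and chr7:63979760-63979827 with values of 21.3 and 28.7. The nearest of these were 6326 bases apart, and no late library and no AC MG library had a peak in the gene. Peaks also did not overlap in the genes for serine/threonine-protein kinase prpf4B, a kinase of pre-mRNA processing (Solyc05g009540, 8450 bases apart), the splicing factor U2af small subunit B, which helps to mark the end of an intron (Solyc10g083640, 3186 bases), D-3-phosphoglycerate dehydrogenase, which opens the route to serine (Solyc03g123830, 895 bases), and elongation factor 1-alpha, which brings tRNAs to the ribosome (Solyc06g005060, 169 bases). In these 4 genes the recurrence was therefore of the gene and not of the site. Another 4 named mutant genes are listed as uncharacterized: peaks shared 185 bases in Solyc08g008290, 288 in Solyc11g007910 and 25 in Solyc06g069820, and lay 1560 bases apart in Solyc10g083800.

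**Figure D3:**
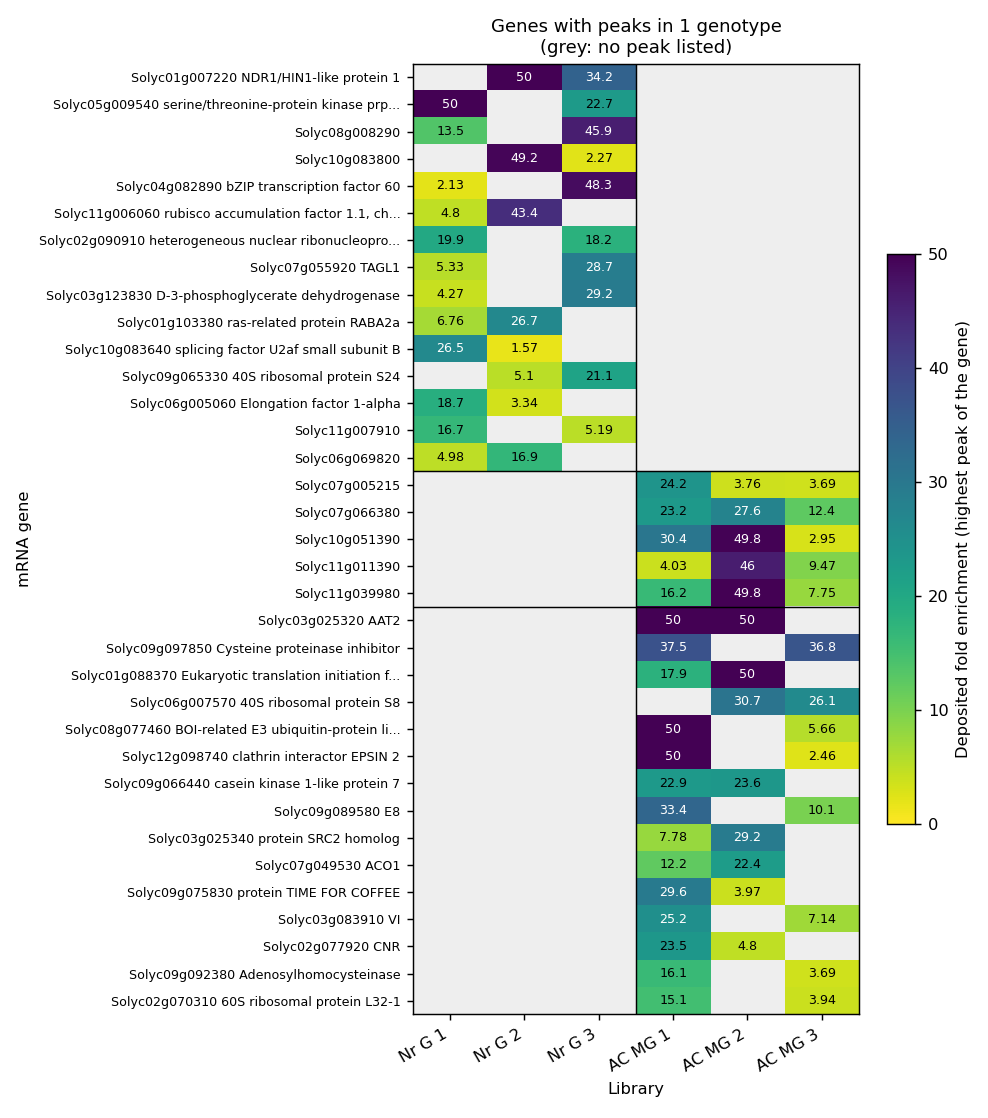
Deposited fold enrichment (colour and number, 0 to 50, highest peak of the gene) of 35 genes in the 6 green libraries (columns, Nr G on the left); grey means no peak listed. The upper block holds 15 genes called in 2 Nr G libraries alone, the middle block the 5 genes called in all 3 AC MG libraries alone, and the lower block 15 genes called in 2 AC MG libraries alone; values within a gene often differ widely between the libraries that list it.

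The 5 genes called in every wild-type library and no mutant library have no description in the lists. Solyc10g051390 had a single interval, chr10:51998403-51998555, in all 3 AC MG libraries, with fold enrichments of 30.4, 49.8 and 2.95. Solyc11g039980 had 16.2, 49.8 and 7.75 in AC MG replicates 1 to 3, within chr11:40539589-40540095. Solyc07g066380 had peaks that ended at the same base, chr7:67963759, in all 3 libraries, with 23.2, 22.45 and 12.4, and replicate 2 also listed chr7:67964888-67964941 with 27.55. In these 3 genes all wild-type libraries pointed to 1 place, although the third library often gave a low value. Solyc11g011390 had 4.03, 46 and 9.47, with the interval chr11:4459914-4460073 in replicates 1 and 3 and another in replicate 2, and Solyc07g005215 had 24.2, 3.76 and 3.69 at 3 places that did not overlap. Nr G listed no peak in any of the 5. In late fruit, Solyc07g005215, Solyc07g066380 and Solyc11g039980 were each called in 1 wild-type library, and none of the 5 was called in a late Never-ripe library.

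Wild-type genes called in 2 libraries included ripening genes, and the positions of their peaks differed in how well they recurred. ACO1 (Solyc07g049530), which completes the synthesis of ethylene, was listed from the same base, chr7:59959392, in AC MG replicates 1 and 2. AAT2 (Solyc03g025320), an alcohol acyl transferase of the kind that makes fruit esters, shared 348 bases between the same libraries. E8 (Solyc09g089580), an ethylene-responsive fruit gene, shared 532 bases between replicates 1 and 3, where both lists began at chr9:69774781. VI (Solyc03g083910), the vacuolar invertase that splits sucrose, had the same pair of intervals in AC MG replicates 1 and 3, chr3:55280603-55281462 and chr3:55283016-55283499. In CNR (Solyc02g077920), an SBP-box regulator of ripening, the peaks of replicates 1 and 2 did not overlap and lay 494 bases apart. So 4 of these 5 genes had a site shared by 2 wild-type libraries. Fold enrichments there were 12.2 and 22.35 in ACO1, 50 and 50 in AAT2, and 10.02 and 10.09 in E8. The VI sites had 22.1 and 5.04, and 25.2 and 7.14. The absence of Nr G peaks is the rule by which the 5 were chosen. Without peaks under the median fold enrichment, AAT2 alone kept 2 calls. In late Never-ripe fruit AAT2 was listed in replicate 3 with 2.51. Late wild-type libraries calling ACO1, E8, VI and CNR numbered 1, 2, 3 and 1.

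The other named wild-type genes had varied roles. The cysteine proteinase inhibitor gene Solyc09g097850 had the interval chr9:72343311-72343479 in AC MG replicates 1 and 3, with fold enrichments of 37.5 and 36.8 and none in Nr G. SAHH (Solyc09g092380), the adenosylhomocysteinase that clears the by-product of methyl transfer, had highest values of 16.1 and 3.69 in AC MG replicates 1 and 3 and shared 302 bases. EPSIN 2 (Solyc12g098740), an adaptor of clathrin-coated vesicles, had 50 and 2.46 in the same libraries and shared 213 bases. In the SRC2 homolog gene Solyc03g025340, peaks of AC MG replicates 1 and 2 shared 305 bases, and in the gene for subunit B of initiation factor 3 (Solyc01g088370) they shared 210 bases. Peaks did not overlap in the genes for 40S ribosomal protein S8 (220 bases apart), 60S ribosomal protein L32-1 (1299 bases), casein kinase 1-like protein 7 (2541 bases), BOI-related E3 ubiquitin-protein ligase 1 (1435 bases) and TIME FOR COFFEE (3 bases), a clock protein in Arabidopsis. Of the 35 genes named for 1 genotype, 3 of 15 mutant and 8 of 20 wild-type genes were still called in at least 2 libraries when weaker peaks, those under the median fold enrichment of 14.8 in the green mRNA lists, were left out.

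Genes of the ethylene and ripening lists were called mainly in wild type, each in few libraries. Of 12 named ripening genes, the Nr G libraries called 1, 0 and 1, against 6, 3 and 3 in the AC MG libraries. The mutant libraries lay below all wild-type libraries, and the library with 6 had the longest list. Of all 1311 genes, the Nr G libraries called 27.3%, 16.6% and 25.2%, against 46.5%, 15.6% and 22% in AC MG. The 12 genes were chosen with earlier results of these data known, so the counts are a description and were not tested. NR (the receptor gene that is mutant in Never-ripe), RIN, NOR and ACS2 were called in no library of the series. The phytoene synthase gene PSY1, which opens carotenoid synthesis, and the polygalacturonase gene PG2A, which breaks down pectin, were each called in 1 AC MG library, with fold enrichments of 20.3 in replicate 3 and 10.3 in replicate 1. Of the 7 called genes of ethylene synthesis and response, 1 was called in Nr G and 6 in AC MG, all 6 of them in AC MG replicate 1. The Nr G gene was EIL1, a transcription factor of the ethylene response, at 14.5 in replicate 2. The AC MG genes included the receptor gene ETR4 at 12.8 and the response factor gene EIL3 at 30.4, both in replicate 1 alone. Among all 1311 genes, 34.2% were called in Nr G alone and 48.7% in AC MG alone.

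Genes of the photosynthesis and chloroplast list, which was matched by words in the descriptions, were called more often in mutant than in wild-type libraries. Of 14 called genes of this list, 10 were called in Nr G alone, 3 in AC MG alone and 1 in both. Among all 1311 genes, 34.2% were called in Nr G alone and 48.7% in AC MG alone. The Nr G libraries called 6, 3 and 3 genes of the list, against 2, 1 and 2 in the AC MG libraries. These small counts did not overlap, and the longest list was wild type. Of all 1311 genes, the Nr G libraries called 27.3%, 16.6% and 25.2%, against 46.5%, 15.6% and 22% in AC MG. The mutant genes included the Rubisco small chain 1 gene (Solyc02g063150, 3.56 in replicate 1), Rubisco activase 1 (Solyc09g011080, 5.87 in replicate 1), a chlorophyll a-b binding protein of the light-harvesting antenna (Solyc03g005760, 31 in replicate 3) and the photosystem II 10 kDa polypeptide (Solyc07g066310, 19 in replicate 2). The wild-type genes included photosystem I reaction center subunit II (Solyc06g054260, 42.7 in replicate 1). Only rubisco accumulation factor 1.1 was called in 2 Nr G libraries and no AC MG library; the other 9 mutant genes were called once. The list was chosen with earlier results of these data known, and no test was made of it.

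Larger groups were spread over both genotypes. Their counts stand beside the shares over all 1311 genes, of which 34.2% were called in Nr G alone and 48.7% in AC MG alone. Ribosomal proteins and translation factors made up 43 called genes, 12 in Nr G alone, 24 in AC MG alone and 7 in both. Their calls numbered 8, 5 and 9 in the Nr G libraries, against 20, 7 and 8 in the AC MG libraries, which overlap apart from AC MG replicate 1. Heat shock proteins and chaperones counted 18, 8 in Nr G alone and 6 in AC MG alone. The Nr G libraries called 9, 3 and 2 of them, against 4, 4 and 5 in the AC MG libraries, and 6 of the 8 were called in Nr G replicate 1 alone, which leaves 2 without it. Among the chaperones in both genotypes, heat shock cognate protein 80 (Solyc07g065840) was called in 2 Nr G libraries and 3 AC MG libraries, with 48.7 and 48.4 in Nr G against 42.2, 8.98 and 3.81 in AC MG. Genes matched by words for transcription factors counted 17, 9 in Nr G alone and 6 in AC MG alone. Of these, 3, TAGL1, bZIP 60 and a GATA factor (Solyc05g056120), were called in 2 Nr G and no AC MG library. The words miss regulators held in other lists. Among those, CNR was called in 2 AC MG and no Nr G library, AP2a and EIL3 in 1 AC MG library each, and EIL1 in 1 Nr G library. Genes of ubiquitin and the proteasome counted 26, 9 in Nr G alone and 14 in AC MG alone, and AC MG replicate 1 listed 16 of them while replicate 2 listed 0. Polyubiquitin (Solyc07g064130) was called in all 3 Nr G libraries, at 34.5, 3.53 and 12.2, and in 2 AC MG libraries, at 49.5 and 6.27.

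In the remaining lists more genes were called in AC MG alone than in Nr G alone, as among all genes (639 against 448). RNA-binding, splicing and RNA-modification genes counted 32, with 8 in Nr G alone, 16 in AC MG alone and 8 in both. Redox enzymes counted 37, with 10 in Nr G alone and 20 in AC MG alone, kinases, phosphatases and receptors 38, with 9 and 24, and transporters and membrane pumps 21, with 4 and 13. Cell wall genes counted 5 (1 in Nr G alone, 4 in AC MG alone), sugar and starch genes 5 (2 and 3), the carotenoid and volatile list 6 (1 and 5) and ripening regulators 3 (1 and 2). Apart from the ripening regulators, every list takes genes by words in the descriptions. The carotenoid and volatile list thus includes S-acyltransferase genes (Solyc03g097630 in Nr G, Solyc05g012790 in AC MG). It also includes a polyvinylalcohol dehydrogenase-like gene (Solyc05g055650 in AC MG). Whether these act in carotenoid or volatile synthesis was not checked. The median gene of each list was called in 1 library, except for the ripening regulators, whose median was 2. No gene of the ethylene, cell wall, sugar, carotenoid, photosynthesis, translation, chaperone, ubiquitin and transcription factor lists was called in all 6 libraries.

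The 71 genes called in all 6 libraries are called core genes here, and their peaks were strong. In each library their median fold enrichment lay at 29.3, 28.6 and 29 in Nr G, against 30.1, 26.7 and 29.1 in AC MG. Genes called in a single library had medians of 11.7, 16.9 and 13.1 in Nr G, against 11.1, 15 and 10.5 in AC MG. Within every one of the 6 lists, the median of the core genes thus stood above that of the genes seen once. Core genes had to have a called peak in every list, so the grouping is not independent of peak strength and this is description only. Peaks of core genes were also shorter than those of single-library genes in each list, with medians of 180, 174 and 178 nt in Nr G, against 181.5, 176 and 191 nt in AC MG. In 39 of the 71 genes all 6 libraries gave the same start and end. All 71 were also called in late fruit of both genotypes. On chromosome 11 lay 14 of them (19.7%), against 7.78% of all 1311 genes.

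**Figure D4:**
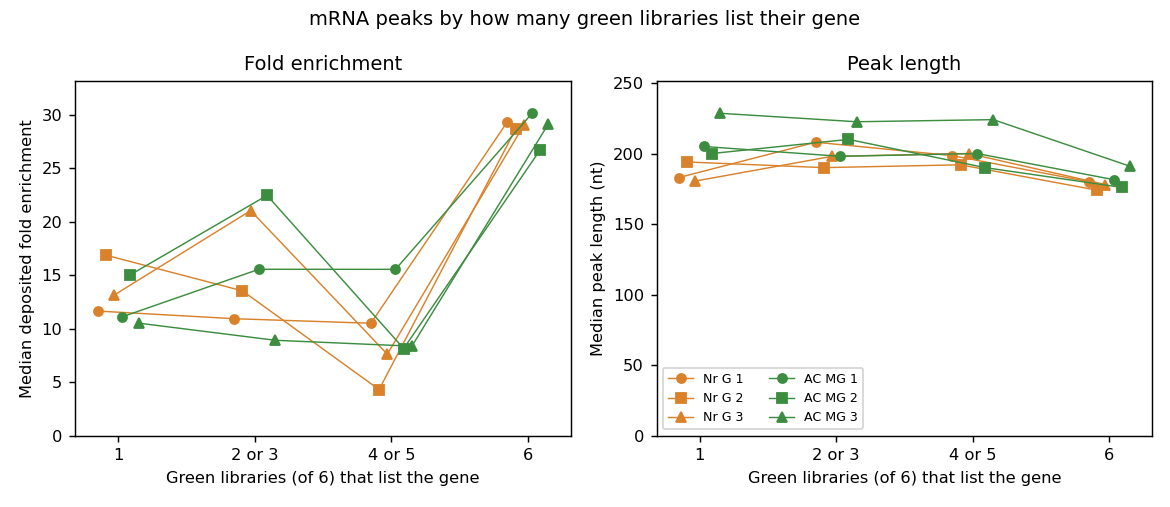
Median deposited fold enrichment (left, ratio) and median peak length (right, nt) of mRNA peaks in each green library, by the number of green libraries (1, 2 or 3, 4 or 5, 6) that list the gene. Lines join the values of a library, orange for Nr G and green for AC MG; fold enrichment is highest for genes in all 6 libraries, at 26.7 to 30.1, in both genotypes.

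A description exists for 15 of the core genes. In 5 of the 71 genes the peak had the value 50, the highest in the lists, in every library, among them UDP-arabinopyranose mutase 1-like (Solyc02g065740), an enzyme that supplies arabinose for the cell wall, at chr2:37458387-37458772, and receptor-like protein 51 (Solyc02g072250). Other described core genes were those for a cytochrome b-c1 complex subunit of the respiratory chain (Solyc06g007540), the DNA helicase twinkle homolog of chloroplasts and mitochondria (Solyc02g022830), thioredoxin-like 4 (Solyc04g078910) and transcription termination factor MTEF1 (Solyc01g007750). The fruit marker ASR1 (Solyc04g071610), a stress and ripening protein, was called in all 6 libraries, and its peak from chr4:58665339 was listed in each. The fruit-specific gene 2A11 (Solyc07g049140) was called in 2 Nr G and 3 AC MG libraries. Words for seed proteins matched 1 called gene, in Nr G replicate 3 alone.

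Among the core genes the order of strength was compared by ranking the 71 within each library. The fold enrichment ends at 50, so genes near that value tie or differ by little and their ranks say little. Ranks did not overlap between the genotypes in 5 genes, 2 (2.82%) with stronger ranks in Nr G and 3 (4.23%) in AC MG. No test was made per gene, as 3 against 3 libraries cannot give a p below 0.1. Some of 71 genes would separate in this way without any difference between the genotypes. MTEF1 ranked 6.5, 30 and 7 in the Nr G libraries, against 38, 36 and 35 in the AC MG libraries, where 1 is the strongest, and its fold enrichments were 50, 40.2 and 50 in Nr G against 31.8, 35.7 and 33.8 in AC MG. Its values thus lay apart as well, with Nr G replicates 1 and 3 at the limit of 50. In Solyc11g044650 the ranks were weaker in Nr G, but the fold enrichments overlapped, with 13.98, 7.15 and 7.43 in Nr G against 9.68, 18.87 and 30.67 in AC MG. In the other 3 genes the fold enrichments overlapped or met too: Solyc01g011060 had 49.94 to 49.98 in Nr G and 49.95 to 50 in AC MG, Solyc03g043620 had 49.14 to 49.56 in Nr G and 42.63 to 49.14 in AC MG, and Solyc09g010870 had 36.72 to 43.68 in Nr G and 40.36 to 45.7 in AC MG. Values lying apart were not particular to MTEF1, as some core genes whose ranks overlapped or met had them in either direction. Solyc03g117210 had 40.72, 43.75 and 50 in Nr G against 37.77, 22.98 and 20.55 in AC MG. Solyc11g045440 had 47.65, 46.84 and 45.1 in Nr G against 47.99, 48.1 and 47.99 in AC MG.

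The lncRNA lists named 11 RNAs, 4 in both genotypes, 4 in Nr G alone and 3 in AC MG alone. Solyc06g011490, an intergenic lncRNA, was called in all 12 IP libraries of the series, with 3.56, 6.67 and 3.57 in Nr G against 5.69, 8.98 and 5.66 in AC MG. Solyc02g032360 was called in all 6 green libraries, with 8.5, 15.1 and 4.87 in Nr G against 14.7, 6.68 and 35.7 in AC MG. Its values overlapped between the genotypes, while those of Solyc06g011490 overlapped in that 6.67 in Nr G lay above the lower wild-type values. Solyc01g056940 was called in Nr G replicates 1 and 2, at 5.51 and 50, and in AC MG replicate 1, at 6.11. Of the 11 lncRNAs, 0 (0%) were called in at least 2 libraries of either genotype and none of the other.

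The circRNA lists named 36 circles, of which 18 were called in both genotypes, 8 in Nr G alone and 10 in AC MG alone. Their 218 peaks were concentrated: the 10 circles called in all 6 libraries held 167 of them (76.6%). A circle of chromosome 11 that the lists assign to Solyc11g027645, spanning 94869 bases, alone had 12, 13 and 12 peaks in Nr G, against 11, 10 and 14 in AC MG. Together with a pair of circles that overlap it, it held 37.5%, 46.9% and 44.1% of the circRNA peaks in Nr G, against 33.3%, 36.4% and 45.9% in AC MG. Circles whose host is named as ribosomal RNA held 27.5%, 31.2% and 32.4% in Nr G, against 26.2%, 36.4% and 27% in AC MG; 1 of the overlapping circles is counted in both shares. The genotypes overlapped in each share. Median peak length over circRNA peaks was 716.5, 549 and 672 nt in Nr G, against 585.5, 517 and 801 nt in AC MG, a difference of 11.3 ± 99.2 nt (SE, n = 3 each, exact permutation p = 0.9). Its sign turned without Nr G replicates 1 (-24 nt) and 3 (-1.75 nt) and without AC MG replicates 1 (-13.2 nt) and 2 (-47.4 nt).

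**Figure D5:**
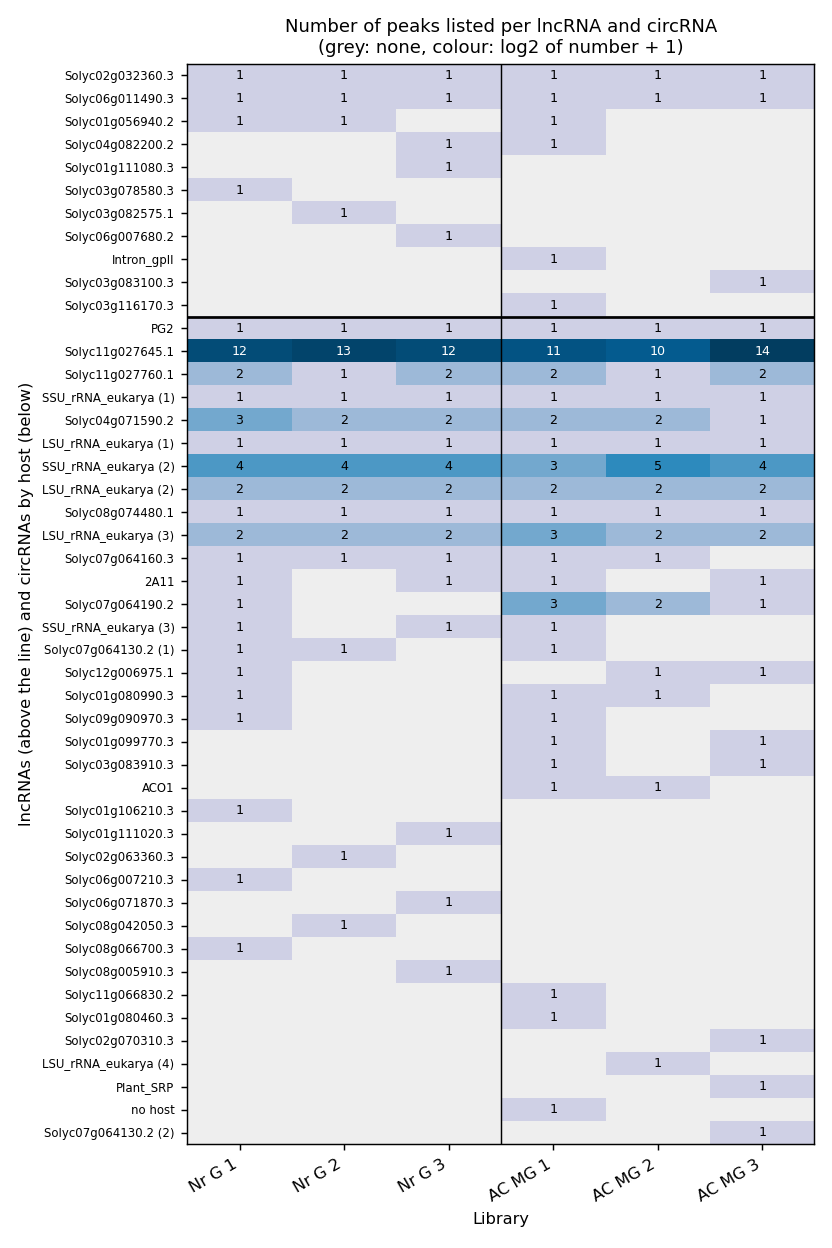
Number of peaks per lncRNA (above the line) and circRNA (below, named by the host in the lists, with a running number in brackets where circles share a host name) in each green library, Nr G on the left; colour is log2 of the number plus 1 and grey means none. The circles called in all 6 libraries lead the lower block, with 10 to 14 peaks per library in the circle assigned to Solyc11g027645, and 3 circles are called in 2 AC MG libraries and no Nr G library.

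No circle (0 of 36, 0%) was called in at least 2 Nr G libraries and no AC MG library, and 3 (8.33%) were called in 2 AC MG libraries and no Nr G library. Their hosts were ACO1, VI and Solyc01g099770, a gene for a translationally controlled tumor protein (TCTP). Each was called in AC MG replicate 1, so without that library none has 2 calls. All 6 peaks of these circles were the same called peaks that the mRNA lists of those libraries hold for the host genes, with the same fold enrichment: 12.2 and 22.4 for ACO1, 22.1 and 5.04 for VI, and 5.42 and 7.63 for TCTP. The circles therefore add no call to those of the mRNA lists. For VI the mRNA lists gave the interval chr3:55280603-55281462 of 860 nt, and the circRNA lists gave chr3:55281315-55281462 of 148 nt, the whole circle.

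This double listing was general. Of the 218 circRNA peaks, 109 (50%) had the peak name, score and fold enrichment of an overlapping peak in the same library's mRNA list, 22, 15 and 15 of them in Nr G and 24, 15 and 18 in AC MG. The interval was the same in 10 of the pairs, longer in the circRNA list in 73 and longer in the mRNA list in 26, with median lengths of 475 nt in circRNA and 224 nt in mRNA. In these pairs the listed length depended on the RNA class under which the peak was listed. The circle whose host is given as PG2 was called in all 6 libraries at the value 50, but its peak at chr10:61722421-61722625 is the one that the mRNA lists place in Solyc10g080260, and the PG2A gene itself (Solyc10g080210) had 1 green peak, at chr10:61688074-61688123 in AC MG replicate 1. Likewise the peaks of ASR1 were listed again under a circle of 33619 bases assigned to Solyc04g071590.

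Late fruit were looked up for the genes that recur in 1 genotype. Of the 24 mutant genes, 2 (8.33%) were called in any late Never-ripe library and 4 (16.7%) in any wild-type library 6 days after breaker. Of the 42 wild-type genes, 6 (14.3%) were called in any late Never-ripe library and 20 (47.6%) in any late wild-type library. For all 1311 green genes the shares were 10.8% in late Never-ripe and 24.3% in late wild-type fruit. The late wild-type lists held 188, 236 and 854 mRNA peaks, and the longest of them listed 16 of the 20. For the 81 genes called in 1 library of each green group, they were 6.17% in late Never-ripe and 33.3% in late wild-type fruit. How far the length of that list goes with the 47.6% was not tested.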

How the data were processed

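The authors deposited 36 m1A peak lists, 1 per IP library and RNA class, of which 18 were used. Per the submitters' processing notes, cutadapt 1.9.3 and HISAT2 2.0.4 were used; the sources used here give no caller settings, control or alignment options, and MACS begins each peak name. The deposited fold enrichment is a ratio, and the deposited score is the negative log10 of the p-value times 10, per the file headers. The FDR column reads 100 in every row and was not used. The lists give no read totals, so depth is unknown and no interval rests on it. Alkali, which turns m1A into m6A, was applied to input and to IP RNA before whole-RNA libraries were made, per the labels' protocols.

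Peaks with the same start and end were counted once per library. Genes are Solyc loci without version, positions are those of assembly SL3.00, named in a scaffold of the circRNA lists, with starts shifted by 1 base to count from 1. Peaks sharing at least 1 base were merged into regions. No annotation of that assembly was used, so exon, intron and UTR positions were not analysed here. Of 1311 genes, 665 have a description; of 660 gene numbers, 657 were found in the RefSeq table (assembly SLM_r2.1) and 645 had the same symbol. Names such as E8, VI and CNR come from the gene lists and were not checked against that table.

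Groups were compared by exact permutation tests in Python 3.11.15 with numpy 2.4.6 and pandas 2.3.3, adjusted over 8 tests by Benjamini-Hochberg. The tests were two-sided, except that of gene sharing within against between genotypes, which was one-sided. Figures used matplotlib 3.10.9. A check of the code on simulated data planted genes called in 3 against 0 libraries. The rule finds these by construction, so the check gives no rate of false calls. Named genes were all genes called in 3 against 0 libraries, up to 15 described genes per genotype called in 2 against 0 and up to 10 called in all 6, ordered by mean fold enrichment, 12 ripening genes, and lncRNAs and circRNAs by recurrence. GATA factor Solyc05g056120, the core genes compared by rank and members of the 14 gene lists given as examples were chosen after their values were seen. Members and lists were chosen with earlier results of these data known. Alternatives left out each replicate, kept peaks with at least the median fold enrichment, cut lists to equal length, counted every row, left out genes called in all 6 libraries, used an overlap coefficient, required 50 percent reciprocal overlap or used the replicate number as a block.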

Additional observations from a re-analysis of the deposited data

How the results depend on the processing

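No comparison of the groups passed 0.05 in any setting, and 3 against 3 libraries cannot reach it. When peaks under the median fold enrichment were dropped, the genes of Nr G alone and of AC MG alone numbered 8 and 21, the regions 7 and 17, and the differences in circRNA peak length (-68.3 nt), peaks per gene (0.00453) and Jaccard index (-0.00177) changed sign. With lists cut to equal length, the genes numbered 12 and 18, the regions 7 and 12, and the Jaccard difference was -0.00642. Over the fits that leave out 1 replicate, the difference Nr G minus AC MG ranged from -0.54 to 0.28 for log2 mRNA peaks, 0.01 to 0.62 for log2 lncRNA peaks, -0.172 to 0.00954 for log2 circRNA peaks, -18.7 to -7.92 nt for mRNA peak length, -47.4 to 94.6 nt for circRNA peak length, -0.0331 to -0.00116 for peaks per gene and -10.6 to 9.3 percentage points for genes shared by the other replicates, where the group that loses a library needs 1 call fewer, so that its share goes up by construction. The Jaccard difference ranged from -0.0094 to 0.0164. The counts ranged from 5 to 39 genes and 4 to 30 regions for Nr G alone, and from 9 to 50 genes and 6 to 38 regions for AC MG alone. With 2 libraries left in a group, both must call a gene, which makes such counts lower. The cause of the other changes was not tested. Reciprocal overlap of 50 percent gave 14 and 27 regions.

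Replicate numbers share no stated litter, plant or batch, and the correlations of same-numbered libraries were -0.066, -0.0474 and 0.0217, so the numbers were not taken as pairs. With the replicate block, the mean of paired differences equals the difference of the group means. Values and directions in the 7 results run with it therefore could not change, and only p could. For the log2 mRNA difference of -0.19 the exact sign-flip test, whose smallest p is 0.25, gave p = 1. Settings for single genes were added after seeing the data. The absence of read totals limits every call.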
